A study of Mus musculus with 6 samples.

Results

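The 10 genes described here encode chemokines and cytokines that call in and activate neutrophils: the chemokine genes Cxcl1, Cxcl2, Cxcl3 and Cxcl5, the growth factor genes Csf2 and Csf3, the interleukin genes Il1a, Il1b and Il6, and the chemokine receptor gene Cxcr2. They were chosen by name, and all 10 were found among the 15295 genes of the count table. The set was picked because Cxcl2 separates the groups, so the difference between the groups is given as a description without a test for these genes, and nothing is supported with it. RNA came from 6 whole tumours that NA13 cells, a murine bladder cancer line, had formed; the labels call them xenografts and name the strain C57BL/6. In 3 tumours the cells carried an shRNA against Ddr2, the gene of a collagen-binding receptor tyrosine kinase, and in 3 (control) a scrambled shRNA. All 6 received the antibody IgG, for which the labels name no target. Poly-T beads selected the mRNA. The labels name neither an shRNA sequence nor a clone. Nor do they tie tumours to animals, so p-values measure only how far these libraries spread, and part of that may be technical. Library totals ranged from 15560571 to 19522985 counts.

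As background, CXC chemokines of this kind bind Cxcr2 on neutrophils and draw them out of the blood into tissue. Interleukin 1, made as an alpha and a beta form, signals through its receptor to the transcription factor NF-kB, which switches on the chemokine genes, Csf2, Csf3 and Il6 in epithelial, stromal and myeloid cells. The products prolong the supply and survival of neutrophils, and many of their mRNAs are short-lived because of AU-rich elements in the 3′ untranslated region. In whole tumours each of these RNAs can come from cancer cells or host cells, and fewer cells of a type cannot be told apart from less RNA per cell.

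The promoters of the chemokine genes are shown because Cxcl1, Cxcl2 and Cxcl3 carry the same run of letters at nearly the same place. RefSeq promoter sequences (GRCm38.p6, 250 bases before to 50 bases after each start) matched 8 of the 10 genes: all but Cxcl5 and Csf3. The 130 bases before the annotated start are given 5′ to 3′ on the strand of the gene, with capitals marking forward matches to the NF-kB type motif GGGNNTTTCC (N, any base). Il6 is shown as a cytokine gene with another form of the motif, and Cxcr2 as the receptor gene with no match. The windows lie on the plus strand at chr5:90891115-90891244 for Cxcl1, chr5:90903769-90903898 for Cxcl2, chr5:90785971-90786100 for Cxcl3, chr5:30012984-30013113 for Il6 and chr1:74153864-74153993 for Cxcr2.
Cxcl1: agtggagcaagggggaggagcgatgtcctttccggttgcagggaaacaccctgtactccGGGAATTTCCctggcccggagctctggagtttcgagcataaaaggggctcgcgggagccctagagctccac
Cxcl2: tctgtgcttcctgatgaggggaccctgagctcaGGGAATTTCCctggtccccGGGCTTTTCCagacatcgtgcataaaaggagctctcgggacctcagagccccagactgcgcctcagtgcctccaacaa
Cxcl3: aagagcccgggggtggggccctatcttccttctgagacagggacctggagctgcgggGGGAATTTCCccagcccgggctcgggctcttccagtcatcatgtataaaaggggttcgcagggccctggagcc
Il6: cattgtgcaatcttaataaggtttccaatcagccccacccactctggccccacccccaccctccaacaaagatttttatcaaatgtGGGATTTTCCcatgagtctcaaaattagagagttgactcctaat
Cxcr2: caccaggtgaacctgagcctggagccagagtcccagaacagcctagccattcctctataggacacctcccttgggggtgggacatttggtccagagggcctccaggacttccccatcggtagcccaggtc

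In the 130 bases shown, the longest run of letters shared by Cxcl1, Cxcl2 and Cxcl3 was GGGAATTTCCC. It was present in 14 of 32851 promoters searched on both strands (0.0426%), those of these 3 genes included. It begins 71 bases before the RefSeq start in Cxcl1, 97 in Cxcl2 and 73 in Cxcl3. All promoter distances are from the RefSeq start, while the gene spans given below are from GENCODE. There Cxcl2 begins at 90903871, inside the window shown, so its matches lie nearer to the GENCODE start. The looser motif GGGNNTTTCC was made from the first 10 letters of GGGAATTTCCC with those at N left free. The 3 chemokine promoters thus match it by construction. It was found in 4 of the 8 promoters, those 3 and that of Il6, and in 1.63% of all promoters. A longer run shared by Cxcl1, Cxcl2 and Cxcl3, of 13 bases, lies after their start, outside the windows shown. It was present in 4 promoters (0.0122%), those of the 3 genes included. Cxcl2 holds a further forward match 78 bases before its start, and Cxcl1 one on the other strand at 89 bases. The letters ATAAAAGG, which in Cxcl3 overlap the TATA box TATAAA, were present in the same 3 chemokine promoters, between 57 and 22 bases before the start, and in 1.76% of all promoters. The AP-1 type motif TGACTCA was found in Il1a and Il6 and in 5.20% of all promoters. The C/EBP type motif TTGNNNAA was found in 6 of the 8 promoters, though its short loose form is also present in 36.7% of all. A match is a string of letters, not a measured binding site.

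**Figure D1:**
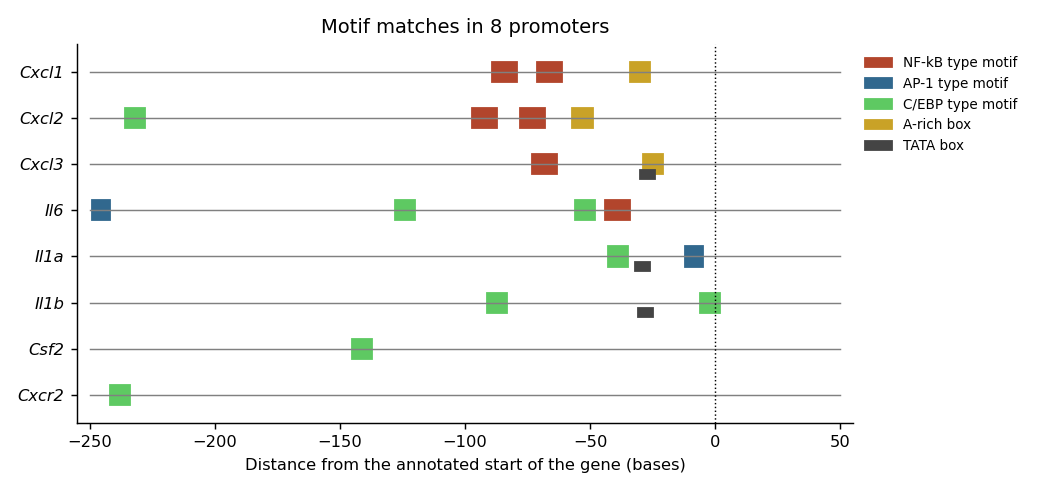
Matches to the NF-kB type motif (GGGNNTTTCC), AP-1 type motif (TGACTCA), C/EBP type motif (TTGNNNAA), A-rich box (ATAAAAGG) and TATA box (TATAAA), on either strand, along 8 promoters, with distance from the annotated RefSeq start in bases on the x axis. Red boxes, the NF-kB type matches, stand within 100 bases before the start in Cxcl1, Cxcl2, Cxcl3 and Il6. There are none in Il1a, Il1b, Csf2 and Cxcr2. Cxcl1, Cxcl2 and Cxcl3 match by construction, as the motif was made from a run they share.

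AU-rich elements were most frequent in Cxcl2, Csf2 and Cxcl1. In the 3′ untranslated regions of GENCODE M21 transcripts on GRCm38, the pentamer ATTTA occurred 11 times in Cxcl2, 9 times in Csf2, 7 times in Cxcl1, 6 times each in Csf3 and Il6, 5 times each in Cxcl3 and Cxcl5, 4 times in Il1b, 3 times in Il1a and 2 times in Cxcr2. Regions within 20% of the same length were compared, each gene's own included. At least as many copies were found in 0.0453% for Cxcl2, 0.0539% for Csf2 and 0.289% for Cxcl1. For Cxcl2 and Csf2 that share amounts to their own region alone. It was 33.3% for Il1a and 46.3% for Cxcr2. The longer element TTATTTATT was present in Cxcl1, Cxcl2, Cxcl3 and Csf2, with 2.16% to 4.35% of regions of like length holding it. The 30 bases richest in the pentamer are shown for those 4 genes, with each ATTTA in capitals.
Cxcl1: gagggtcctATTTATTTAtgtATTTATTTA
Cxcl2: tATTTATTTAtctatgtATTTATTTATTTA
Cxcl3: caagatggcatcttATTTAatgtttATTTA
Csf2: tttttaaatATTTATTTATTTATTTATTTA

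In tumours labelled shDdr2, most of the ligand RNAs were at lower levels than in control tumours, and the receptor and Il6 RNAs overlapped between the groups. Mean CPM, the count scaled to library size with TMM-adjusted totals, was 19.7% to 44% of the control mean for the 4 chemokine genes, Csf2, Csf3 and Il1a, and 63.1% for Il1b. It was 87.1% for Il6 and 110% for Cxcr2. The groups did not overlap in 5 of the 10 genes, Cxcl2, Cxcl3, Cxcl5, Csf3 and Il1b, all lower in tumours labelled shDdr2. Groups failed to overlap in that direction in 2.17% of all 15295 genes and in 2.11% of the 14498 genes tested. Since the set was picked on this contrast, nothing is read from that comparison. In the edgeR quasi-likelihood test 0 of 14498 genes passed an adjusted p of 0.05 (0% called), so none of the 9 members tested did. At an unadjusted p under 0.05 there were 209 genes (1.44%), 65 of them lower (0.448%). DESeq2 called 40 genes (0.276%), while limma called 0, with voom or with the authors' log2 values.

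**Figure D2:**
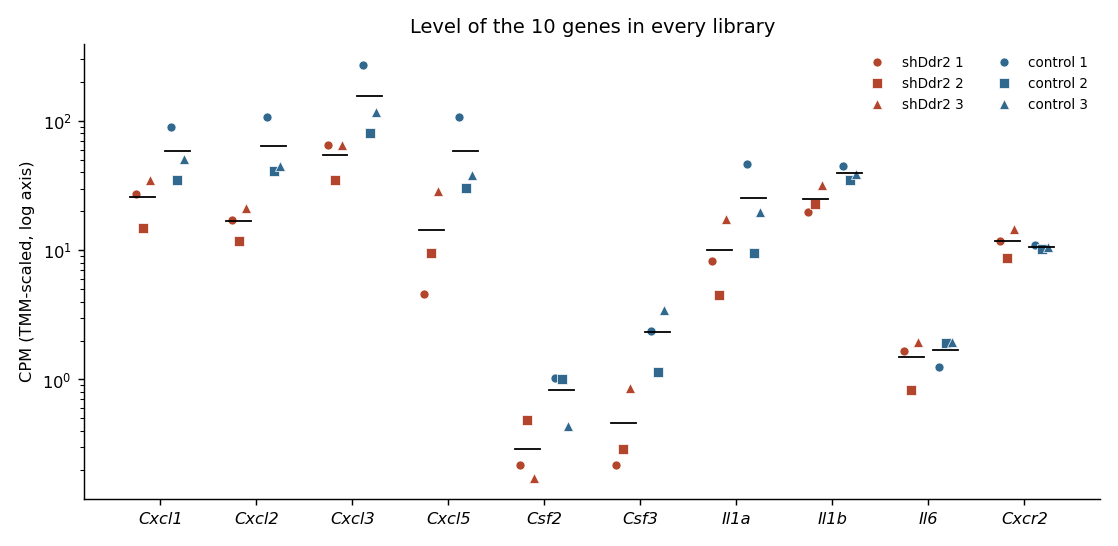
CPM of the 10 genes in each library on a log axis, red for tumours labelled shDdr2 and blue for control, with the symbol giving the library number and the black line the group mean of 3. Cxcl2, Cxcl3, Cxcl5, Csf3 and Il1b show no overlap between the groups, and Cxcr2 and Il6 stand at like levels in both.

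Tumours of a group were unlike each other. Ddr2 itself was at 4.84, 18.9 and 28.6 CPM in libraries labelled shDdr2 1 to 3 and at 6.42, 16.7 and 20.5 CPM in control 1 to 3. Its log2 fold change of 0.27 (SE 0.66, 95% interval -1.27 to 1.81, edgeR adjusted p = 1.0) did not show a lower level, so group names here are labels. It changed sign without control 1 (-0.08) or without shDdr2 3 (-0.28). The first principal component (50.1% of the variance) set the library labelled shDdr2 1 apart, and the second (22.2%) control 1. Control 1 was the highest control in 8 of the 10 genes, and shDdr2 3 the highest of its group in 8 of 10. Control 1 also had 596 CPM of summed erythrocyte markers, against 25.1 to 62.6 CPM in the other 5 libraries. The library labelled shDdr2 1 had 3818 CPM of summed keratinocyte markers, against 745 to 1098 CPM in the other 5. Whether these features have a part in the results was not tested.

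Cxcl3, a CXC ligand of Cxcr2 (Entrez 330122, chromosome 5, 90786103 to 90789600, plus strand, GRCm38), was the most abundant member. It was at 64.9, 34.9 and 64.7 CPM in libraries labelled shDdr2 1 to 3 and at 272, 81.2 and 118 CPM in control 1 to 3. The highest library labelled shDdr2 stayed below the lowest control, and control 1 stood far above the other controls. Its fitted difference was -1.52 on the log2 scale (SE 0.48, 95% interval -2.65 to -0.39), and -0.84 without control 1.

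Cxcl2, known also as MIP-2 and made by macrophages, epithelium and fibroblasts (Entrez 20310, chromosome 5, 90903871 to 90905938, plus strand), was the gene for which the set was picked. Its level was 17.3, 11.8 and 21.3 CPM in libraries labelled shDdr2 1 to 3 and 107, 41.1 and 44.9 CPM in control 1 to 3. Again every library labelled shDdr2 lay below every control, with little spread among them. Cxcl2 had a log2 fold change of -1.94 (SE 0.43, 95% interval -2.95 to -0.92), and -1.34 without control 1.

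Cxcl1, also called KC (Entrez 14825, chromosome 5, 90891241 to 90893115, plus strand), stood at 27.4, 15.0 and 35.1 CPM in libraries labelled shDdr2 and at 89.7, 35.1 and 51.1 CPM in control. The groups touched, since shDdr2 3 was marginally above control 2. Cxcl1 had a log2 fold change of -1.18 (SE 0.43, 95% interval -2.20 to -0.17), and -0.73 without control 1.

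Cxcl5, an epithelial ligand of Cxcr2 also called LIX in the mouse (Entrez 20311, chromosome 5, 90759360 to 90761624, plus strand), varied most within a group among the chemokine genes. It was at 4.62, 9.45 and 28.9 CPM in libraries labelled shDdr2 and at 107, 30.1 and 38.0 CPM in control. The lowest and highest libraries labelled shDdr2 were 6.25-fold apart, and the highest came close to control 2 without reaching it. For Cxcl5 the log2 fold change was -2.03 (SE 0.75, 95% interval -3.79 to -0.27), -1.24 without control 1 and -3.05 without shDdr2 3.

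The 4 chemokine genes summed to 114, 71.1 and 150 CPM in libraries labelled shDdr2 1 to 3 and to 576, 187 and 252 CPM in control 1 to 3. Per kilobase of transcript, Cxcl3 made up 57.5%, 51.5% and 46.1% of that sum in libraries labelled shDdr2 and 50.9%, 46.2% and 49.5% in control, so its share overlapped between the groups while the total did not. Cxcl2 made up 14.0%, 16% and 13.9% in libraries labelled shDdr2, below the 18.3%, 21.4% and 17.3% of control. The ratio of Cxcl1 to Cxcl2 CPM was 1.59, 1.26 and 1.65 in libraries labelled shDdr2 and 0.839, 0.854 and 1.14 in control, again without overlap. Cxcl5 made up as little as 2.64% in shDdr2 1 and 8.996% to 13.3% in the other 5 libraries. These shares come from the contrast on which the set was picked and carry no test.

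**Figure D3:**
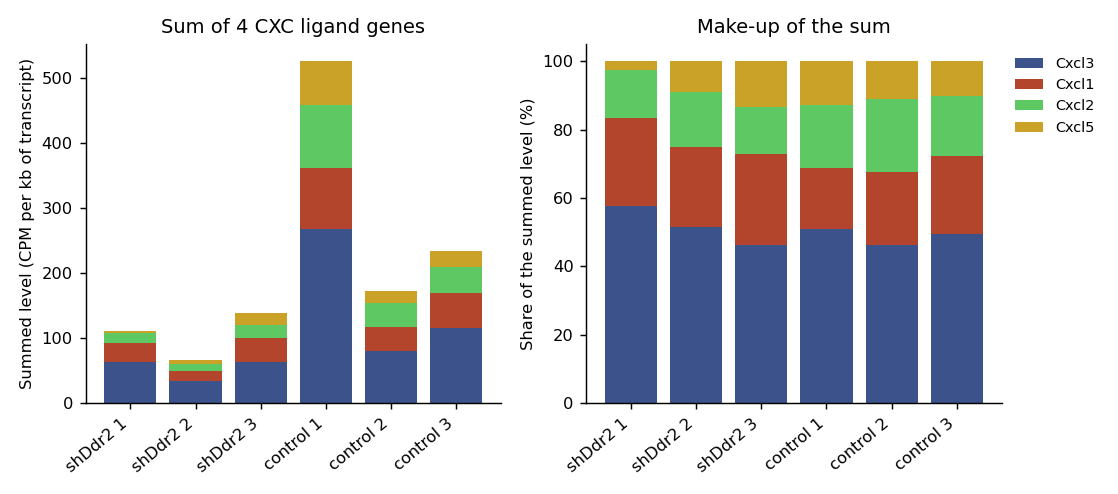
Left, the summed level of Cxcl1, Cxcl2, Cxcl3 and Cxcl5 in CPM per kilobase of transcript in each library; right, the share of each gene in that sum in percent. The sum was 66.7 to 138 in libraries labelled shDdr2 and 173 to 527 in control, and Cxcl3 (bottom segment) was the largest part in every library.

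The growth factors were scarce. Csf3, which encodes G-CSF, the factor that drives granulocyte production (Entrez 12985, chromosome 11, 98701263 to 98703629, plus strand), had 3, 6 and 15 counts in libraries labelled shDdr2 and 44, 19 and 55 counts in control. These are 0.217, 0.292 and 0.861 CPM in libraries labelled shDdr2 and 2.37, 1.14 and 3.46 CPM in control. The groups did not overlap, although exact Poisson 95% intervals of 8.40 to 24.7 for the 15 counts and 11.4 to 29.7 for the 19 counts do overlap. For Csf3 the log2 fold change was -2.32 (SE 0.67, 95% interval -3.88 to -0.75), and -3.13 without shDdr2 3.

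Csf2, which encodes GM-CSF, a growth and activating factor of granulocytes and macrophages (Entrez 12981, chromosome 11, 54247271 to 54249667, minus strand), fell under the filter on low counts and was not tested. It had 3, 10 and 3 counts in libraries labelled shDdr2, or 16 in all, and 19, 17 and 7 counts in control, or 43 in all. The groups overlapped, and the Poisson intervals of a count of 3 (0.62 to 8.77) and a count of 7 (2.81 to 14.4) do so too. With no filter the fitted log2 fold change was -1.45.

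The IL-1 ligands lie next to each other on chromosome 2 but differed in how they varied. Il1b, the secreted form made mainly by activated myeloid cells (Entrez 16176, 129364570 to 129371139, minus strand), was at 19.8, 22.8 and 32.03 CPM in libraries labelled shDdr2 and at 44.7, 34.8 and 38.9 CPM in control. Its groups did not overlap, by a narrow margin between shDdr2 3 and control 2. Il1b had a log2 fold change of -0.66 (SE 0.25, 95% interval -1.24 to -0.09), which ranged from -0.89 to -0.53 when any 1 library was left out.

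Il1a, the form that epithelial and other cells hold ready and release on damage (Entrez 16175, 129299610 to 129309972, minus strand), was at 8.23, 4.48 and 17.3 CPM in libraries labelled shDdr2 and at 46.4, 9.56 and 19.7 CPM in control. Its groups overlapped, with control 2 below shDdr2 3 and control 1 alone at the top. The log2 fold change was -1.34 (SE 0.67, 95% interval -2.91 to 0.24), and -0.54 without control 1. The ratio of Il1a to Il1b CPM was 0.416, 0.196 and 0.539 in libraries labelled shDdr2 and 1.04, 0.274 and 0.506 in control, so only in control 1 was Il1a as abundant as Il1b in counts.

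Il6, a cytokine of the acute phase response (Entrez 16193, chromosome 5, 30013114 to 30019981, plus strand), was at 1.66, 0.828 and 1.95 CPM in libraries labelled shDdr2 and at 1.24, 1.91 and 1.95 CPM in control. The groups overlapped throughout. The log2 fold change was -0.20 (SE 0.46, 95% interval -1.27 to 0.86), and changed sign to 0.09 without shDdr2 2.

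Cxcr2, the receptor that neutrophils use to follow these ligands (Entrez 12765, chromosome 1, 74153989 to 74161246, plus strand), was at 11.7, 8.67 and 14.7 CPM in libraries labelled shDdr2 and at 11.1, 10.2 and 10.6 CPM in control. The control libraries lay within those labelled shDdr2. The log2 fold change was 0.14 (SE 0.28, 95% interval -0.52 to 0.79), and -0.06 without shDdr2 3. The interval does not show that Cxcr2 was equal in the groups, and it overlaps that of Il1b (-1.24 to -0.09).

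**Figure D4:**
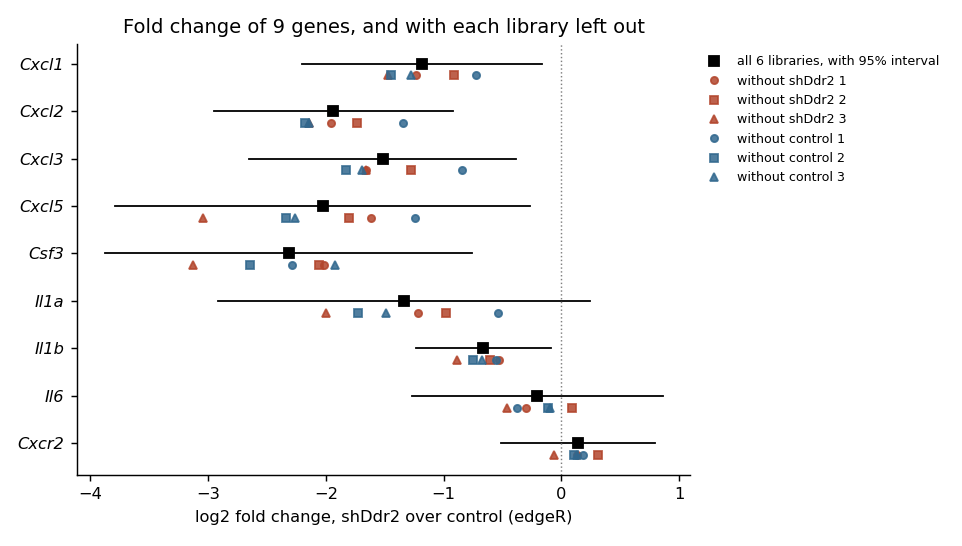
Fitted log2 fold change (shDdr2 over control, edgeR) of the 9 members tested, with black squares and 95% intervals for all 6 libraries and coloured symbols for fits with 1 library left out. The circle for control 1 lies nearest to 0 in Cxcl1, Cxcl2, Cxcl3, Cxcl5 and Il1a, while Il6 and Cxcr2 change sign in 1 fit each.

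Control 1 thus weighed on the chemokine genes and Il1a: without it, the median over the 9 members tested was -0.73 against -1.34 with all libraries. Csf3 (-2.29) and Il1b (-0.56) changed little. Leaving out any 1 library left 5 to 7 of the 10 genes with groups that did not overlap and lower in libraries labelled shDdr2, where 4.14% to 12.9% of all genes tested did so. In the runs without control 1 and without shDdr2 1 they were Cxcl2, Cxcl3, Cxcl5, Csf3 and Il1b, as with all libraries. The same-numbered libraries differed in the same direction in all 3 pairs for Cxcl1, Cxcl2, Cxcl3, Cxcl5, Csf2, Csf3, Il1a and Il1b. For Cxcl2, Cxcl3, Cxcl5, Csf3 and Il1b any pairing would do so, since their groups do not overlap. The share of all genes with like directions is not given here, so nothing is read from the pairs. The log2 ratio of CPM was -2.63, -1.79 and -1.08 in pairs 1 to 3 for Cxcl2, and -2.49, -1.09 and -0.19 for Il1a.

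Levels of different genes were compared per kilobase of transcript, taking for each gene the shortest transcript among those with the longest coding sequence. In tumours labelled shDdr2 the order was Cxcl3 (54.0 ± 17.0 CPM per kilobase, SD, n = 3), Cxcl1 (27.1 ± 10.7), Il1b (18.3 ± 4.70), Cxcl2 (15.1 ± 4.28), Cxcl5 (9.09 ± 8.15), Cxcr2 (5.26 ± 1.36), Il1a (5.07 ± 3.33), Il6 (1.30 ± 0.511), Csf2 (0.365 ± 0.213) and Csf3 (0.323 ± 0.249). In control tumours it was Cxcl3 (155 ± 99.9 CPM per kilobase, SD, n = 3), Cxcl1 (61.5 ± 29.5), Cxcl2 (58.0 ± 33.3), Cxcl5 (37.1 ± 27.0), Il1b (29.1 ± 3.64), Il1a (12.8 ± 9.64), Cxcr2 (4.78 ± 0.190), Csf3 (1.64 ± 0.822), Il6 (1.49 ± 0.349) and Csf2 (1.03 ± 0.419). In tumours labelled shDdr2, the neighbours that differed by more than the larger of their SDs were Cxcl3 and Cxcl1, Il1a and Il6, and Il6 and Csf2. In control they were Il1b and Il1a, Cxcr2 and Csf3, and Il6 and Csf2. All other neighbours in both orders differed by less. With the longest of its coding transcripts in its place, Cxcl2 in control would be at 34.6 CPM per kilobase, below Cxcl5. Cxcl2 and Cxcl3 share 5.75% and 6.31% of their 50-base stretches with each other, so their counts depend in a small part on how shared reads were split. Il1a, Il1b and Csf2 overlap the annotated genes Gm14023, Il1bos and Gm12223, and the strand setting of the counting is not given in the sources used here.

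How alike the genes varied was measured as the root mean square difference of their log2 CPM over the 6 libraries, each gene centred on its own mean. Genes were not scaled, so the measure takes in the size of differences as well as their order over the libraries. Il1b and Cxcl5, for example, ranked the 6 libraries alike but were 1.04 apart. Among the 36 pairs of the 9 members tested, Cxcl1 with Cxcl3 (0.21) and Cxcl2 with Cxcl3 (0.28) were the closest. Next came Il6 with Cxcr2 (0.32), Cxcl1 with Il1a (0.35) and Cxcl1 with Cxcl2 (0.38). Pairs among Cxcl1, Cxcl2 and Cxcl3, which hold the run GGGAATTTCCC in their promoters, were among the closest. Cxcl5, whose promoter was not searched, stood 0.72 to 0.89 from each of the 3. Cxcl1 was closer to Il1a, which has no match to the looser motif, than to Cxcl2. Il6, which has one, stood 0.74 to 1.02 from the 3 genes. Whether the run has a part in this was not tested. Il1a and Il1b were 0.75 apart, farther than Il1a was from Cxcl1, Cxcl2 (0.52) or Cxcl3 (0.39). The points share their libraries, and 2 of these 3 chemokine genes share some sequence.

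Of 12307 genes with an average log2 CPM of at least 1, the 5 most like Cxcl2 by this measure were S100a9 (0.27), Cxcl3 (0.28), Pparg (0.30), Alox12 (0.36) and Pglyrp1 (0.38), with Cxcl1 sixth. S100a9 encodes one chain of calprotectin, abundant in neutrophils. Its level was 12.1, 5.85 and 17.5 CPM in libraries labelled shDdr2 and 55.5, 21.2 and 26.6 CPM in control, the same order of libraries as Cxcl2. Pglyrp1 encodes a peptidoglycan-binding protein of neutrophil granules and was at 11.2, 9.40 and 18.6 CPM in libraries labelled shDdr2 and 51.6, 16.8 and 26.8 CPM in control. Pparg encodes a nuclear receptor active in urothelial differentiation and Alox12 an arachidonate lipoxygenase. By the same measure, which takes in the size of differences, the genes most like Il1b were Ntng1 (0.10), Spred3 (0.11), Slc9a5 (0.12), Mfsd13a (0.12) and Dusp1 (0.13), none of them a member. Dusp1, which encodes a phosphatase of MAP kinases, was at 32.9, 39.95 and 68.3 CPM in libraries labelled shDdr2 and 71.8, 59.8 and 64.8 CPM in control.

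Markers of neutrophils, the cells that carry Cxcr2, did not all move with the ligands. The 14 listed markers summed to 355, 226 and 418 CPM in libraries labelled shDdr2 and 701, 396 and 436 CPM in control, so the groups overlapped. Much of that sum came from Hcar2 and Ltf, so it is not an even measure of the list. Hcar2 was at 206, 106 and 105 CPM in libraries labelled shDdr2 and 193, 144 and 140 CPM in control. Ltf was at 43.2, 32.5 and 142 CPM in libraries labelled shDdr2 and 324, 48.8 and 137 CPM in control. Of the 14, 10 had a fitted value below 0, where 42.9% of all genes tested did, and 4 did not. Those 4 were Mmp8 (log2 fold change 0.415, SE 0.73), Fpr1 (0.28, SE 0.85), Fpr2 (0.13, SE 0.36) and Clec4d (0.0, SE 0.37). The median log2 fold change was -0.34, and 0 passed the edgeR test. S100a8, the partner of S100a9, was at 8.52, 2.05 and 12.5 CPM in libraries labelled shDdr2 and 13.9, 15.1 and 16.8 CPM in control. Csf3r, the G-CSF receptor of granulocytes, was at 4.33, 9.55 and 18.9 CPM in libraries labelled shDdr2 and 8.36, 14.9 and 11.4 CPM in control. Fpr1, a receptor for bacterial peptides, averaged below 1 CPM over all libraries. The marker genes Ly6g, Mpo, Elane, Camp, Ngp and Stfa2l1 were not found by symbol among the genes listed. Macrophage markers summed to 950 to 1807 CPM in libraries labelled shDdr2 and 976 to 1477 CPM in control. Mast cell markers, 7 of 7 with lower fitted values, summed to 23.1 to 47.4 CPM in libraries labelled shDdr2 and 28.3 to 66.2 CPM in control. T and NK cell markers summed to 5.27 to 26.5 CPM in libraries labelled shDdr2 and 4.53 to 33.3 CPM in control. Fibroblast markers ranged from 1629 to 11220 CPM in libraries labelled shDdr2 and from 2739 to 5925 CPM in control. Endothelial markers ranged from 79.4 to 405 CPM in libraries labelled shDdr2 and from 134 to 269 CPM in control. Urothelial and epithelial markers ranged from 11070 to 12320 CPM in libraries labelled shDdr2 and from 11200 to 12940 CPM in control, with 11 of 13 lower, 5 of them without overlap (2.11% of all genes tested were so). Skeletal muscle markers were at 462 to 3534 CPM in libraries labelled shDdr2 and 10.5 to 124 CPM in control. No other marker list had sums that did not overlap between the groups. In 9 of its 11 genes the groups did not overlap, all higher in libraries labelled shDdr2 (2.21% of all genes tested were so). Their median log2 fold change over the 11 was 4.71, and 0 passed the edgeR test. The part of these cell types in the ligand levels was not tested.

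The rest of the pathway was followed in 7 lists of 103 genes, of which 92 were tested. None passed the edgeR test (0 of 92), DESeq2 also called 0 of them, and at an unadjusted p under 0.05 there were 4, all lower: Nfkbia, Nfkbiz, Lif and Plau. The median log2 fold change was -0.11 over the 92 genes and 0.04 over all genes tested. Fitted values were below 0 in 65 of the 92 genes, and in 42.9% of all genes tested. The list medians below are from the fit without pairing of libraries. With the replicate number as a block, the median was 0.11 for the IL-1 family, -0.40 for other targets, -0.20 for receptors, -0.17 for decay regulators and -0.06 for other CXC chemokines.

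The receptors of the members stood close to their control levels, with 6 of 10 lower and a median log2 fold change of -0.10, which was 0.27 without shDdr2 1 and 0.15 without control 2. Il1r1, the signalling receptor for IL-1, was at 46.9, 66.6 and 84.7 CPM in libraries labelled shDdr2 and 78.8, 85.7 and 74.2 CPM in control. Il1r2, a decoy receptor that binds IL-1 without signalling, was at 27.4, 26.7 and 34.6 CPM in libraries labelled shDdr2 and 20.6, 26.4 and 19.6 CPM in control. Of the 10, Il1r2 alone had groups that did not overlap, higher in libraries labelled shDdr2 (2.21% of all genes tested did so), with a log2 fold change of 0.41 (SE 0.22) that did not pass the test. Il6st, the shared signal chain of the IL-6 family, had a log2 fold change of 0.20 (SE 0.36), and Il1rap, the co-receptor for IL-1, one of -0.32 (SE 0.38).

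Among genes of the IL-1 family and its processing, 8 of 15 had lower fitted values, with a median log2 fold change of -0.05. Il33, an alarmin of the family, ranged from 29.8 to 131 CPM in libraries labelled shDdr2 and from 26.5 to 342 CPM in control, with control 1 at the top. Aim2, a DNA sensor, and Pycard, the inflammasome adaptor, were highest in shDdr2 1, at 120 and 226 CPM. Their other libraries labelled shDdr2 were at 42.0 and 54.6 CPM for Aim2 and 60.6 and 50.5 CPM for Pycard, against control levels of 43.6 to 47.8 CPM for Aim2 and 60.5 to 112 CPM for Pycard.

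In the signalling list, 19 of 25 genes had lower fitted values, with a median log2 fold change of -0.08. Nfkbia, which encodes the inhibitor that NF-kB itself induces, was at 185, 159 and 209 CPM in libraries labelled shDdr2 and 290, 257 and 260 CPM in control. Nfkbiz, a nuclear partner needed for some NF-kB targets, was at 38.0, 53.6 and 61.2 CPM in libraries labelled shDdr2 and 70.1, 84.4 and 71.5 CPM in control. In both genes every library labelled shDdr2 lay below every control, as in 2.11% of all genes tested. Neither log2 fold change, -0.55 for Nfkbia (SE 0.20) or -0.57 for Nfkbiz (SE 0.23), passed the test. Nfkb1, the p50 subunit, was at 244 ± 39.4 CPM in tumours labelled shDdr2 and 264 ± 45.7 CPM in control (SD, n = 3), a difference within the spread.

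Of 19 other IL-1 and NF-kB targets, 15 had lower fitted values, with a median log2 fold change of -0.17. The groups did not overlap in 3 of them, Tnf, Birc3 and Plau, all lower in libraries labelled shDdr2, as in 2.11% of all genes tested. Ptgs2, the inducible cyclooxygenase, was at 282, 258 and 277 CPM in libraries labelled shDdr2 and 554, 239 and 347 CPM in control. Mmp13, a collagenase, ranged from 35.7 to 155 CPM in libraries labelled shDdr2 and from 83.3 to 274 CPM in control. Ccl20, a chemokine for cells with Ccr6, was at 1.44, 0.731 and 1.67 CPM in libraries labelled shDdr2 and 6.58, 1.195 and 1.70 CPM in control, so control 1 alone stood apart. Selp, the endothelial P-selectin, had a log2 fold change of 1.09 (SE 0.74). Plau, the urokinase gene, was at 119, 103 and 115 CPM in libraries labelled shDdr2 and 143, 157 and 156 CPM in control, and Lif, an IL-6 family cytokine, at 21.6 ± 6.01 CPM in tumours labelled shDdr2 and 36.7 ± 9.77 CPM in control (SD, n = 3).

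The regulators of cytokine mRNA decay, most of which promote it while Elavl1 stabilises AU-rich mRNAs, were lower in fitted value in 7 of 7, with a median log2 fold change of -0.11. Zfp36, which encodes tristetraprolin, was at 34.6, 40.7 and 57.4 CPM in libraries labelled shDdr2 and 60.6, 70.7 and 58.7 CPM in control (log2 fold change -0.52, SE 0.24). It was the only one of the 7 whose groups did not overlap, lower in libraries labelled shDdr2 as in 2.11% of all genes tested. Zc3h12a, an endoribonuclease of cytokine mRNAs, had a log2 fold change of -0.43 (SE 0.35). The more abundant Zfp36l2 (-0.11, SE 0.25) and Khsrp (-0.11, SE 0.29) moved little on the same scale, within their errors. In the IL-17 axis, 4 of 6 genes were lower with a median of -0.09; the receptor gene Il17ra was at -0.20 on the log2 scale (SE 0.28), its partner Il17rc at 0.07 (SE 0.21) and the cytokine gene Il23a at -0.25 (SE 0.47).

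Other CXC chemokines showed no common direction, with 6 of 10 lower and a median log2 fold change of -0.26, which was 0.53 without control 2. Cxcl9, an interferon-induced ligand of Cxcr3 on T cells, was at 73.9, 109 and 9.41 CPM in libraries labelled shDdr2 and 2.16, 192 and 48.7 CPM in control, so that control 1, the highest library for Cxcl1, Cxcl2 and Cxcl3, was the lowest for Cxcl9. Cxcl14 was at 42.0 ± 15.3 CPM in tumours labelled shDdr2 and 21.3 ± 10.7 CPM in control, and Cxcl16 at 195 ± 43.4 CPM in tumours labelled shDdr2 and 224 ± 12.8 CPM in control (SD, n = 3). Ppbp, a platelet chemokine that also binds Cxcr2, was at 2.96, 1.46 and 9.70 CPM in libraries labelled shDdr2 and 20.1, 2.81 and 8.42 CPM in control, with a log2 fold change of -1.15 (SE 0.86).

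**Figure D5:**
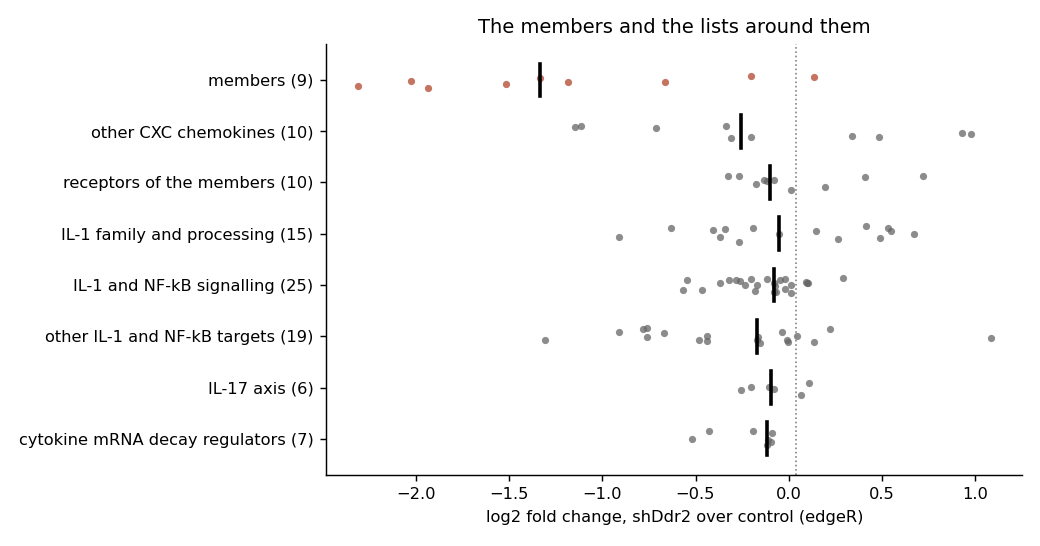
Fitted log2 fold change (shDdr2 over control, edgeR) of each tested gene of the members, in red, and of 7 lists around them, in grey, with the number tested in brackets, black bars for medians and a dotted line for the median of all genes tested (0.04). The members were picked on this contrast, and their median is -1.34, while the list medians lie between -0.26 and -0.05.

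The 4 chemokine genes lie within 1 cluster on chromosome 5, in the order Cxcl5, Ppbp, Pf4, Cxcl3, Cxcl15, Cxcl1 and Cxcl2, all on the plus strand. Pf4, a platelet chemokine gene that lies between Cxcl5 and Cxcl3, was at 26.2, 11.5 and 24.9 CPM in libraries labelled shDdr2 and 9.55, 17.5 and 22.4 CPM in control, a log2 fold change of 0.34 (SE 0.42). Cxcl15 was at 7.004, 15.5 and 4.42 CPM in libraries labelled shDdr2 and 26.2, 9.80 and 8.24 CPM in control. Within 500 kb of either end of the cluster, 11 genes other than the members were listed, and in none of them did the groups fail to overlap. Of all genes tested, 2.11% failed to overlap with lower and 2.21% with higher levels, so none among 11 says little. The nearest one beyond Cxcl2, Mthfd2l, a mitochondrial folate enzyme gene, had a log2 fold change of -0.29 (SE 0.32). Rassf6, the nearest listed before Cxcl5, had one of -0.01 (SE 0.21).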

How the data were processed

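The authors deposited whole-number counts per Entrez gene, and log2 values as a table and again per sample. Per the submitters' processing notes, RSEM 1.2.31, Bowtie2 2.1.0, limma and build GRCm38.p5 were used, with no step stated; the counts may be rounded estimates. The deposited log2 values are the log2 of the count over 1 factor per library, plus 1: undoing that gave the count within 0.5 in 91753 of 91770 values. The lowest count is 1. Reads were paired-end, 150 bases, per the labels' protocols.

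Counts were tested as deposited: filterByExpr (14498 of 15295 genes kept), TMM scaling, edgeR 4.0.16 quasi-likelihood F test with robust fitting (R 4.3.3), two-sided, Benjamini-Hochberg over all genes tested. Alternatives were DESeq2 1.42.0, limma 3.58.1, other scalings and filters, the replicate block, and each library left out. Symbols came from RefSeq by Entrez number (14876 matched, 419 did not). Poisson intervals cover counting error only. The depth of 15560571 to 19522985 counts leaves members below about 1 CPM with few counts.

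Replicate numbers come from the titles. Deviations from the group mean were compared between libraries sharing a number, over genes, and r was 0.299, 0.267 and 0.253. As shDdr2 2 with control 3 gave 0.254, these values do not establish a pairing. The replicate number was used as a block in an alternative fit only. Printed fold changes are from the fit without the block; block values stand beside list medians they move. What a number stands for is not stated. No pair within a group agreed within counting noise (chi-square per degree of freedom 24.8 to 229). The members, lists and motifs were chosen with earlier results of these data known. Genes named are all members, Ddr2, up to 4 genes per pathway list (the 2 of highest mean CPM and the 2 of largest change with an average log2 CPM of at least 1), and the 5 genes most like Cxcl2 and Il1b. Lif, Plau, Tnf, Birc3, the neighbours on chromosome 5 and single markers were singled out after their values were seen.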

Additional observations from a re-analysis of the deposited data

How the results depend on the processing

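The count of genes past the edgeR test was 0 under the other scalings and filters, with the replicate block, by limma and without any 1 library, and 40 by DESeq2. The log2 fold change of Ddr2 changed sign to -0.08 without control 1 and to -0.28 without shDdr2 3, and reached 0.71 without shDdr2 1. The median over the 9 members tested ranged from -1.73 without control 2 to -0.73 without control 1, and from -1.34 to -1.25 under the other alternatives; it was -1.25 with the replicate block. That block changed no call. The number of members whose groups did not overlap was 5 with TMM scaling, 5 on library totals, 6 on the deposited log2 values and 5 to 7 without any 1 library, of which Cxcr2 was the 1 that was higher, without shDdr2 2. These alternatives for the overlap were added after the data were seen. Of 224 other values compared, 216 moved by less than 1 SD between replicates and 8 by more; the 8 are Csf3 without shDdr2 3 (-3.13), the median of other CXC chemokines without control 2 (0.53), that of the IL-17 axis without shDdr2 1 (0.03) and, 5 times, that of the IL-1 family. The last, -0.05 as reported, changed sign to 0.11 with the replicate block, 0.11 by voom, 0.11 on the deposited log2 values, and 0.06 without control 1 or control 2. The median of other CXC chemokines was also above 0 by voom (0.09) and on the deposited values (0.04). Csf2 could be fitted with no filter on low counts and in 4 of the runs with a library left out. Counts below 20 limit what can be said of Csf2 in every library. They also limit Csf3 in control 2 and in the libraries labelled shDdr2, and Il6 in shDdr2 2. The cause was not tested.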

Other observations

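Beyond the chemokine cluster on chromosome 5 lie the genes of 4 EGF receptor ligands, Epgn, Ereg, Areg and Btc, each of whose groups overlapped. Epgn, epigen, was at 134, 18.7 and 7.29 CPM in libraries labelled shDdr2 1 to 3 and 23.0, 38.4 and 33.3 CPM in control 1 to 3. Areg, amphiregulin, was at 104, 35.6 and 34.4 CPM in libraries labelled shDdr2 and 81.3, 95.1 and 75.8 CPM in control. Areg was highest in shDdr2 1 and lowest in the other libraries labelled shDdr2. Ereg had a log2 fold change of -0.45 (SE 0.35) and Btc one of -0.38 (SE 0.58). None passed the edgeR test.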
